A study of Mus musculus with 14 samples.

Results

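Trimethylation of histone H3 at lysine 4 (H3K4me3) was compared between the prefrontal cortex of mice after 30 days of social defeat and of mice after 10 days. The comparison used the 5 libraries of the 30-day group (SDS30) and the 5 of the 10-day group (SDS10), 10 of the 14 samples of the series. They were chosen by their labelled group and not by any measured value. The mark was read in 48695 called regions, obtained by summing the 153207 peak summits of the deposited table, and in the single summits. Of these, 48174 regions and 152270 summits passed the filter on low reads and were tested.

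H3K4me3 is placed by the KMT2 (MLL) and SETD1 methyltransferases around the start sites of active and poised genes, mostly at CpG-rich promoters, and is removed by the KDM5 demethylases. Readers such as TAF3, BPTF and the ING proteins bind it and connect it to transcription and nucleosome remodelling. The prefrontal cortex, made of excitatory neurons, inhibitory interneurons and glia, takes part in the control of social and emotional behaviour. Social defeat is a widely used model of lasting stress in mice.

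All animals were adult male C57BL/6J mice of 10 to 12 weeks at the start of housing in the labels. SDS10 and SDS30 mice met an unfamiliar aggressive CD1 mouse every day for 10 or 30 days and were housed beside an aggressor, behind a perforated divider, in between. Control mice (3 libraries) lived in divided cages with no aggressor. The defeated groups had behavioural tests on days 8 to 9 and 28 to 29, and the cortex was collected 24 hours after their last encounter. Because the groups ended at different times, the days of defeat cannot be told apart from age and time in the paradigm. One input library was not analysed here. Nothing in the labels ties a library to an animal of its own, and the spread behind the p-values may thus be partly technical. The batch date is the same for all, which does not show that the libraries were prepared together.

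Reads on summits ranged from 4512817 to 9351959 in SDS10 and from 4750679 to 10524293 in SDS30. Replicate 4 of SDS10 and replicate 2 of SDS30 were the shallowest. The weakest pair of libraries, replicate 2 of SDS10 and replicate 2 of SDS30, correlated at r = 0.917 across regions, and these libraries stood farthest apart in several measures below. Of the defining markers, all 6 of cortical excitatory neurons had a region within 2 kb of a gene start, and 4 of 6 of inhibitory neurons (none for Sst and Vip). All 4 genes of tissues that the cortex does not hold (Alb, Ins2, Myh6, Cdx2) had none. All 5 markers of striatal neurons, which a dissection of the cortex can include, had a region, with summed signals of 984 to 1352 in SDS10 and 915 to 1202 in SDS30. For microglia, 2 of 5 markers had a region, with sums of 46.6 to 107 and 39.9 to 103.

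No region and no summit passed the test between 30 and 10 days of defeat. With limma on log2(value + 1), 0 of 48174 regions (0%) and 0 of 152270 summits (0%) had an adjusted p under 0.05 (Benjamini-Hochberg), and the same held after the trend with signal level, described next, was removed from each library (0% and 0%). The smallest limma adjusted p was 0.981 for regions and 0.963 for summits. At an unadjusted p under 0.05, limma gave 1215 regions higher in SDS30 (2.52%) and 1009 lower (2.09%), where 5% in all would be expected with no difference. edgeR and DESeq2 on the recovered reads also called 0 regions and 0 summits, with 2029 and 2058 regions and 6838 and 7795 summits at an unadjusted p under 0.05. Libraries of the groups did not overlap in 169 regions that were higher in SDS30 (0.351%) and in 146 that were lower (0.303%). The coding-gene regions and summits named first below were picked for small p-values and for no overlap, with the trend kept or removed. That their groups are separate thus follows from the selection. Distal regions were picked by their p alone. Later ones are members of gene lists or genes chosen for their role, whatever their p. All are described by their values, since none passed the threshold.

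Weak regions tended to be higher in SDS30 and strong regions lower. Regions were sorted into deciles by their mean signal over all libraries. In the weakest decile, with a median normalised signal of 16.8, the median log2 fold change (SDS30 minus SDS10) was 0.15, and 66.9% of regions were higher in SDS30. In the strongest decile, with a median of 571, it was -0.06, and 24.6% were higher. Single summits went from 0.13 in the weakest decile to -0.10 in the strongest.

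**Figure D1:**
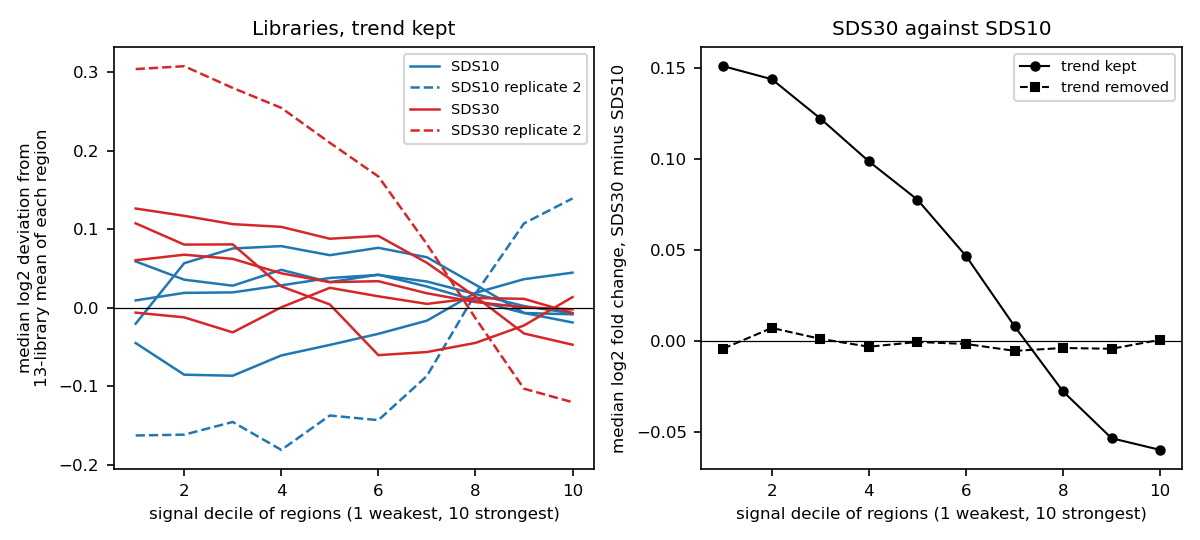
Left, median log2 deviation of each SDS library from the 13-library mean of each region, against the signal decile of regions; right, median log2 fold change, SDS30 minus SDS10, by decile, with the trend kept (filled circles) and removed (squares). Replicate 2 of SDS30 starts at 0.30 and ends at -0.12, replicate 2 of SDS10 runs the other way from -0.16 to 0.14, and the median fold change of 0.15 in the weakest decile goes to 0.00 once the trend is removed.

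The slope of a library's log2 deviation against the log2 signal level summarises this trend. Replicates 1 to 5 of SDS10 had slopes of 0.0284, 0.0648, 0.0027, 0.0011 and -0.0052. Those of SDS30 had 0.0084, -0.0771, -0.0074, -0.0258 and -0.0147. The groups overlapped, and the control libraries, at 0.0065, 0.0225 and -0.0042, lay among them. The mean slope was -0.0233 ± 0.0325 (SD, n = 5) in SDS30 and 0.0184 ± 0.0289 (SD, n = 5) in SDS10, a difference of -0.0417 with p = 0.0476 in a two-sided exact permutation test over the 10 libraries (smallest p possible 0.00794). Adjusted over the 9 library measures compared, the exact permutation p was 0.262. Without replicate 2 of SDS10 the difference was -0.0301 (exact permutation p = 0.119), without replicate 2 of SDS30 it was -0.0283 (exact permutation p = 0.127), and without both it was -0.0167 (exact permutation p = 0.171). Without both, the median log2 fold change was 0.07 in the weakest decile and -0.01 in the strongest. Over the 13 ChIP libraries the slope and total reads had a Pearson r of 0.16 (permutation p = 0.601) and a Spearman rho of 0.13 (permutation p = 0.666). Without the 2 libraries farthest from the median depth, r was -0.41 (permutation p = 0.209) and rho was -0.13 (permutation p = 0.713). The libraries with the most extreme slopes, replicate 2 of SDS10 and of SDS30, were among the 3 shallowest, with 5677624 and 4750679 reads, and deviated in opposite directions. The part of depth in the trend was not tested.

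At coding genes, whose starts include the strongest regions, lower values were more frequent than higher ones. For 14265 coding genes the strongest region within 2 kb of a start was taken. These were 12906 regions, and a region shared by genes counts once for each gene. Of the genes, 811 were lower in SDS30 at an unadjusted limma p under 0.05 (5.69%) against 92 higher (0.645%). With the trend removed, 393 were lower (2.75%) and 239 higher (1.68%), and the split over all regions became 880 lower (1.83%) and 823 higher (1.71%). Leaving out replicate 2 of both groups gave 331 lower and 189 higher genes with the trend kept, and 250 lower and 270 higher with it removed. Leaving out replicate 1 of SDS30 alone gave 1190 lower and 290 higher, leaving out its replicate 2 gave 393 and 63, and leaving out replicate 2 of SDS10 gave 524 and 128, so that 1 library moved either count by over 1.5 times. Of the 2224 regions at an unadjusted p under 0.05 with the trend kept and the 1703 with it removed, 1192 were shared, 53.6% of the first list and 70% of the second. With the trend removed, the groups did not overlap in 128 regions higher in SDS30 (0.266%) and 148 lower (0.307%).

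Scaling moved the split between higher and lower regions. The median log2 fold change over all regions was 0.02 with the deposited scaling, 0.00 with TMM factors and 0.04 with upper-quartile factors. At an unadjusted p under 0.05, TMM scaling gave 1081 regions higher and 1180 lower, against 1215 and 1009 with the deposited scaling, and upper-quartile scaling gave 1548 regions higher and 645 lower, and 4530 summits higher and 3081 lower. With the deposited scaling, 3061 summits were higher (2.01%) and 4734 lower (3.11%), and with the trend removed 2800 were higher (1.84%) and 3388 lower (2.22%). At coding genes lower regions outnumbered higher ones under each scaling, with 937 and 63 under TMM and 506 and 153 under upper-quartile factors.

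Among regions picked for no overlap between the groups, the strong regions at Klhl24, Tusc3, Ncoa2 and Stam2 had the smallest p-values of the lower ones. Tissue was bulk, so fewer cells with the mark and less mark per cell cannot be told apart. Klhl24 encodes a substrate adaptor of a cullin-3 ubiquitin ligase. Its region on chr16:20097693-20098327, inside the gene and within 2 kb of one of its ends, had normalised signals of 542, 525, 511, 576 and 489 in SDS10 and 421, 348, 465, 402 and 417 in SDS30. All SDS30 libraries lay below all SDS10 libraries, and the log2 fold change was -0.37 ± 0.09 (SE; limma adjusted p = 0.981). With the trend removed it was -0.31 ± 0.08, and the groups still did not overlap. Control libraries had 498 ± 64.8 (SD, n = 3).

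Tusc3, a subunit of the oligosaccharyltransferase that N-glycosylates proteins in the endoplasmic reticulum, had 468, 532, 475, 501 and 450 in SDS10 and 404, 312, 361, 411 and 422 in SDS30 on chr8:39005522-39006793. Every SDS30 library was below every SDS10 library (-0.35 ± 0.09; trend removed -0.30 ± 0.08). Ncoa2, a coactivator of steroid and other nuclear receptors, had 892, 1064, 830, 869 and 812 in SDS10 and 746, 567, 791, 708 and 741 in SDS30 over 9 summits on chr1:13372719-13374546. Both extremes were replicates numbered 2, and the groups did not overlap (-0.33 ± 0.09; trend removed -0.27 ± 0.07). Stam2, a part of the endosomal complex that sorts ubiquitinated receptors, had 445, 479, 443, 452 and 407 in SDS10 and 381, 364, 364, 355 and 330 in SDS30. The narrow spread of both groups left a gap between them (-0.31 ± 0.08; trend removed -0.26 ± 0.08).

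Further regions with no overlap between the groups and lower values in SDS30 were those of the ATP synthase subunit gene Atp5j, of Mppe1, of the Golgi PDZ protein gene Gopc and of the ubiquitin ligase gene Trim27. The region at Atp5j also lies at the start of Gabpa, an ETS transcription factor gene, so its signal cannot be given to either. It held 926 ± 29.2 in SDS10, 787 ± 50.01 in SDS30 and 786 ± 19.1 in control (SD; n = 5, 5 and 3), with a log2 fold change of -0.24 ± 0.06. Gopc had 607 ± 11.1 in SDS10 and 503 ± 33.3 in SDS30 (-0.27 ± 0.07), and after trend removal its groups overlapped (-0.21 ± 0.07). Mppe1 differed by -0.29 ± 0.08 and Trim27 by -0.37 ± 0.10. The lowest Trim27 value, 279.6, was that of replicate 2 of SDS30.

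**Figure D2:**
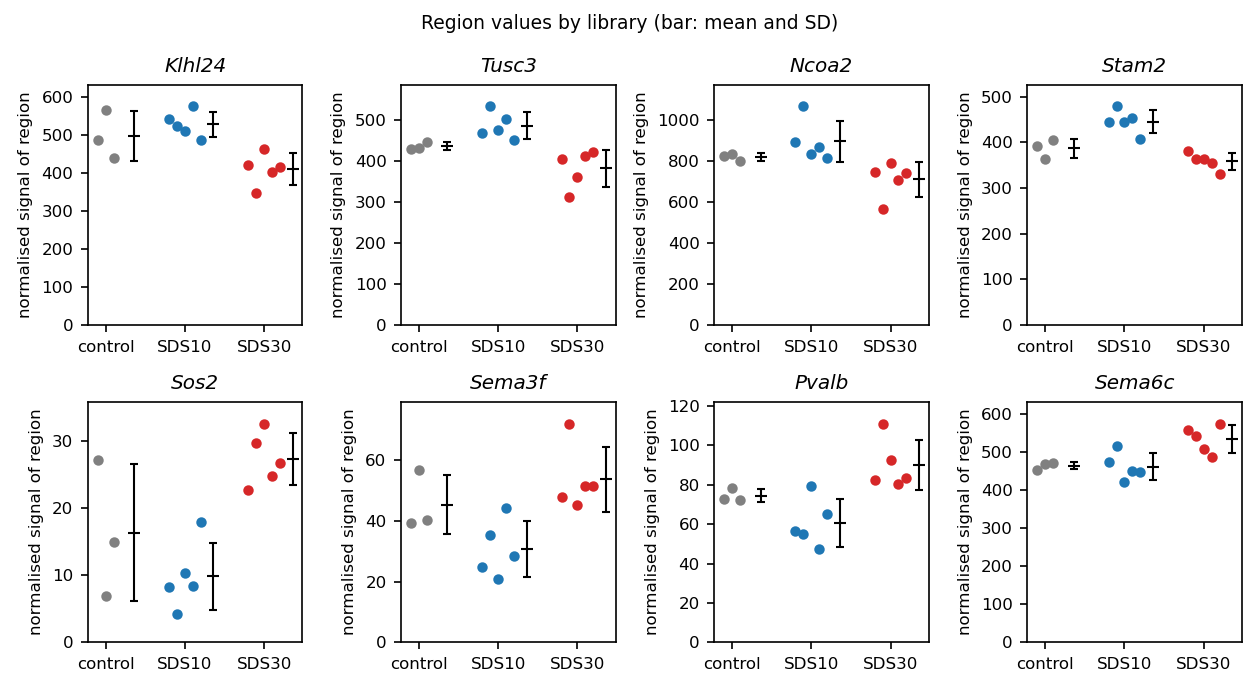
Normalised signal of 8 regions at named genes in the control, SDS10 and SDS30 libraries (points), with the group mean and SD (bars). In the upper row every SDS30 point lies below every SDS10 point, in the lower row Sos2, Sema3f and Pvalb have higher SDS30 points throughout, and the points of Sema6c overlap.

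Most of the higher regions named here had a weaker signal than the lower regions above. Sos2, which encodes an exchange factor that activates Ras, had a single summit at chr12:69683215-69683215, 1363 bp from the nearest RefSeq start used here. It held 8.20, 4.23, 10.4, 8.47 and 17.9 in SDS10 and 22.7, 29.7, 32.6, 24.8 and 26.8 in SDS30. Every SDS30 library was above every SDS10 library (log2 fold change 1.50 ± 0.36, limma adjusted p = 0.981; trend removed 1.34 ± 0.34). The control libraries lay in the SDS30 range (27.3) and in the SDS10 range (6.95 and 14.9). Sema3f, a secreted semaphorin that repels axons and trims dendritic spines, had 24.6, 35.3, 20.7, 44.0 and 28.5 in SDS10 and 47.8, 71.9, 45.2, 51.3 and 51.5 in SDS30 (0.81 ± 0.23; trend removed 0.73 ± 0.22). The groups did not overlap with the trend kept or removed. Pvalb, the calcium-binding protein of fast-spiking interneurons, had 56.6, 55.1, 79.1, 47.4 and 65.05 in SDS10 and 82.2, 110.9, 92.6, 80.4 and 83.3 in SDS30. Its groups were separate by a small margin (0.57 ± 0.17) and overlapped after trend removal (0.52 ± 0.16).

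Ntn3, a netrin gene, differed by 1.06 ± 0.31, Man2a1, a Golgi mannosidase gene, by 0.67 ± 0.21, and Hmga1, a gene of a DNA-bending chromatin protein, by 0.98 ± 0.31. All of these overlapped between groups after trend removal. Chmp6, of the membrane-remodelling ESCRT-III complex, had 186 ± 14.5 in SDS10 and 239 ± 36.035 in SDS30 (SD, n = 5; 0.36 ± 0.12), with replicate 5 of SDS30 at 303.6 above the others. A summit shared by Mrpl14 and Tmem63b differed by 0.86 ± 0.29. With the trend removed, Sema6c and a region shared by Pnmal1 and Pnmal2 came into the list as strong promoter regions. Sema6c, a membrane-bound semaphorin, had 473, 515, 420, 451 and 446 in SDS10 and 557, 542, 507, 486 and 574 in SDS30. Before trend removal its groups overlapped (0.21 ± 0.08), and after it they did not (0.27 ± 0.07). The Pnmal1 region went from 431 ± 52.1 to 512 ± 25.9 (SD, n = 5; kept 0.26 ± 0.09, removed 0.31 ± 0.09).

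RefSeq start windows (GRCm38.p6, 250 bases before to 50 bases after a start) were matched for 9 of the genes named so far. Regions shared by several genes were not searched. Shown are the 4 of these 9 whose start lies in or nearest to the measured region, 2 with lower and 2 with higher values in SDS30. They are given as examples of CpG-rich promoters at which the mark was read. Capitals mark CG dinucleotides, and each window reads 5′ to 3′ on the strand of its gene.
Stam2: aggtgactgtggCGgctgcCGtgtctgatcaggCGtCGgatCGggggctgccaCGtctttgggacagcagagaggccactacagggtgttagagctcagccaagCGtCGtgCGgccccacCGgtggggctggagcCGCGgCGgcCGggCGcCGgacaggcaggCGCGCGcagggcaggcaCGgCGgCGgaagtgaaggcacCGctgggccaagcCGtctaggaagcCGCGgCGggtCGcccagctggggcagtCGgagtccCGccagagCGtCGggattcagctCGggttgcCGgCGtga
Gopc: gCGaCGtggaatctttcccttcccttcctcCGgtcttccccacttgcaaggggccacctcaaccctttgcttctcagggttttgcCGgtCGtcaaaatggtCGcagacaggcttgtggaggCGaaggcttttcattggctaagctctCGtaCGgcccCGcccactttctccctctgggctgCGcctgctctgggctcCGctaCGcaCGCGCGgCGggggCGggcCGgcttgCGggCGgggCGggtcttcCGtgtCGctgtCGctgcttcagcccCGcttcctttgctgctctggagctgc
Pvalb: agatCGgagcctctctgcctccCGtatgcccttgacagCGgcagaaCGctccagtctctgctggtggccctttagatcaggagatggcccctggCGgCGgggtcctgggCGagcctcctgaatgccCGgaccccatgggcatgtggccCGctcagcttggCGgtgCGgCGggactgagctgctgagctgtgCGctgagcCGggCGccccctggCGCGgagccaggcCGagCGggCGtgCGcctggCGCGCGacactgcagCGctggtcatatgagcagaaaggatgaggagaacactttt
Sema6c: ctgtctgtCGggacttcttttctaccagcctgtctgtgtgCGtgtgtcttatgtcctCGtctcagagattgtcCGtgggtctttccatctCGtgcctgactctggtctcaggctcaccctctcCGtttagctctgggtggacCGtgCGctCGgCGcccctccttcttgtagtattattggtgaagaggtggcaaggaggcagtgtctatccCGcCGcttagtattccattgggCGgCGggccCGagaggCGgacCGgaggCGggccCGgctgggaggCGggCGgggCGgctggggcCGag
The windows are chr2:52742100-52742399 on the minus strand for Stam2, chr10:52382075-52382374 on the minus strand for Gopc, chr15:78204188-78204487 on the minus strand for Pvalb and chr3:95160170-95160469 on the plus strand for Sema6c. The start lies inside the span of summits for Stam2, and 124, 80 and 158 bp outside it for Gopc, Pvalb and Sema6c. They hold 35, 26, 25 and 23 CG dinucleotides. Among 32544 distinct windows of this length, 7.02%, 17.0%, 18.6% and 21.7% hold as many or more, and the median window holds 7. Genes with lower and with higher values thus both include CG-rich windows.

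Among single summits the split between directions differed from that of regions. Lower summits outnumbered higher ones with the trend kept, where higher regions outnumbered lower ones. Groups did not overlap in 508 summits higher in SDS30 (0.334%) and 589 lower (0.387%), and after trend removal in 474 (0.311%) and 445 (0.292%). Among the higher ones, the Ticam1 summit, at the gene of an adaptor of Toll-like receptors, had 47.6, 39.5, 43.3, 44.0 and 40.7 in SDS10 and 72.8, 84.3, 73.6, 71.0 and 58.0 in SDS30 (0.72 ± 0.17, limma adjusted p = 0.963; trend removed 0.74 ± 0.17). The gap between the groups was wider than the range of the SDS10 libraries. Rasgrp2, an exchange factor for Rap proteins, differed by 0.87 ± 0.21. Bptf, whose product reads H3K4me3 in the NURF remodelling complex, differed by 1.02 ± 0.25, from 24.4 ± 9.54 in SDS10 to 47.7 ± 6.32 in SDS30 (SD, n = 5).

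Among the lower summits were those of Reck, an inhibitor of matrix metalloproteinases, Mmp17, a membrane-anchored member of those proteinases, Ppp6c, the catalytic subunit of protein phosphatase 6, and Btbd1. Reck had 147, 141, 134, 144 and 137 in SDS10 and 109, 85.9, 101, 94.96 and 96.4 in SDS30 (-0.53 ± 0.11; trend removed -0.42 ± 0.11). Mmp17 differed by -0.59 ± 0.13, Ppp6c by -0.57 ± 0.13 and Btbd1 by -0.80 ± 0.17 (trend removed -0.49 ± 0.12, -0.48 ± 0.13 and -0.72 ± 0.16). All 4 were picked among summits whose groups do not overlap, and the limma adjusted p was 0.963 for each.

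Within regions, the signal on the edge summit was a larger part of the whole in SDS30 at a few genes. limma's diffSplice, which tests a summit's change against that of its region and shares 1 estimate of the spread in a region, called 2 of 131413 summits (0.00152%). These were in the regions of Tbc1d1, a GTPase-activating protein for Rab proteins, and Ralgps1, an exchange factor for Ral. The last of the 12 summits of the Tbc1d1 region held 1.98%, 1.03%, 2.25%, 1.31% and 2.38% of the region's signal in SDS10 and 3.28%, 3.44%, 3.42%, 3.30% and 2.88% in SDS30 (diffSplice adjusted p = 0.0082). The control libraries, at 3.09%, 4.07% and 3.04%, lay with SDS30. The first of the 7 Ralgps1 summits held 3.23% ± 1.11 in SDS10, 7.25% ± 2.18 in SDS30 (SD, n = 5) and 5.55% ± 0.653 in control (SD, n = 3; diffSplice adjusted p = 0.0120), and its SDS10 and SDS30 shares overlapped. Those of Ezh1, a Polycomb methyltransferase gene (4.29% ± 1.64 and 7.80% ± 0.845), and Ppt1, a lysosomal thioesterase gene (3.75% ± 1.09 and 7.03% ± 1.71), followed with a diffSplice adjusted p of 0.0931 each. The calls were lost with the trend removed (0 of 131413, 0%; smallest diffSplice adjusted p = 0.118). Without replicate 4 of SDS10 or replicate 1 of SDS30 diffSplice called 0 (smallest adjusted p of 0.0503 and 0.0573), without replicate 2 or 4 of SDS30 1, without replicate 3 or 5 of SDS30 3, and without replicate 5 of SDS10 4. With the spread of each summit estimated on its own, limma called 0 (0%; smallest adjusted p = 0.877).

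**Figure D3:**
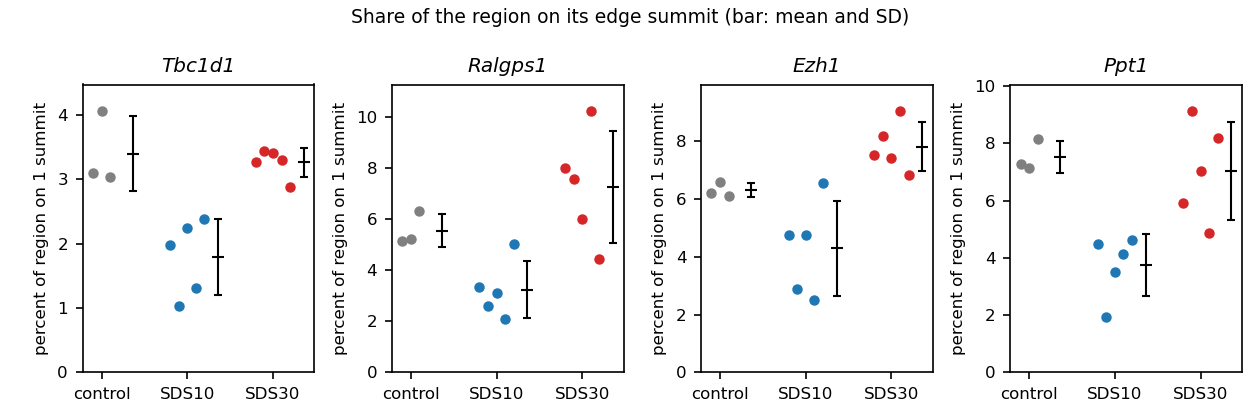
Percent of a region's normalised signal that lies on its edge summit, by library (points), with the group mean and SD (bars). The SDS30 points of Tbc1d1 lie between 2.88% and 3.44%, above all SDS10 points and beside the control points.

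In all regions of 3 or more summits, summits were ranked by their mean signal in the control libraries. The rank of the edge summits above was not tested. The weakest summits of a region had a median log2 fold change of 0.06 (59.3% higher in SDS30) and the strongest -0.06 (36.4% higher). After trend removal the medians were -0.01 and 0.00. The strongest summit held a median of 28.5% ± 0.836 of its region in SDS30, 29.2% ± 0.636 in SDS10 (SD, n = 5; exact permutation p = 0.183, adjusted 0.411) and 30.1% ± 0.0864 in control (SD, n = 3). Because that summit was picked in the control libraries, the choice itself raises the control share, which cannot be compared with the SDS shares.

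Away from gene starts, the mark had higher values in SDS30 in a larger share of regions than at coding starts. Between genes here means outside every coding gene, so such a region may lie inside a noncoding gene. Regions between genes had a median log2 fold change of 0.12 (69.9% of 6600 higher) and those inside coding genes 0.10 (66.0% of 9884). Those at coding starts had -0.02 (45.0% of 28311) and those at noncoding starts 0.06 (60.5% of 3379). With the trend removed these medians were 0.04, 0.02, -0.01 and 0.01. With the trend kept, the median log2 deviation of regions between genes was -0.077, -0.221, 0.004, 0.058 and 0.054 in the SDS10 libraries. In SDS30 it was -0.057, 0.285, 0.026, 0.144 and 0.016, so that the groups overlapped and both replicates numbered 2 were extremes. The share of signal beyond 2 kb of any gene's start or end was 10.6%, 10.4%, 11.1%, 11.4% and 11.2% in SDS10 and 10.9%, 12.8%, 11.2%, 11.7% and 11.5% in SDS30. The groups overlapped, with means of 10.9% and 11.7% (exact permutation p = 0.0714, adjusted 0.262). The regions beyond 2 kb of any gene's start or end with the smallest p were single summits inside Mtch1 (chr17:29341409-29341409; 8.55 ± 2.22 in SDS10, 21.1 ± 4.88 in SDS30; log2 fold change 1.22 ± 0.29) and inside Lipe (chr7:25386465-25386465; 10.8 ± 1.44 and 24.7 ± 7.41; 1.07 ± 0.28), and 1 between genes (chr19:55061279-55061279; 13.2 ± 6.17 and 29.3 ± 7.80; 1.18 ± 0.31). On the lower side, a region between genes on chr13:4943045-4943210 had 79.7 ± 27.7 and 44.1 ± 11.4 (-0.82 ± 0.24), a summit inside Dapp1 on chr3:137938864-137938864 had 24.0 ± 5.35 and 12.1 ± 2.003 (-0.91 ± 0.29), and a region inside Nrg2, a neuregulin gene, had 178 ± 9.40 and 138 ± 22.8 (-0.38 ± 0.13; all SD, n = 5).

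On the X chromosome, which males carry once, the median log2 fold change of 1310 regions was -0.06, and -0.10 with the trend removed, against 0.02 and 0.00 on the autosomes. With the trend removed, 28.3% of X regions were higher in SDS30, against 50.2% of autosomal regions. The libraries varied within groups. The median log2 deviation of X regions, trend removed, was 0.067, 0.177, 0.072, 0.009 and 0.019 in SDS10. In SDS30 it was 0.101, -0.140, -0.014, -0.029 and -0.049, so that the groups overlapped and both replicates numbered 2 were extremes. The X share of signal was 1.62%, 1.70%, 1.62%, 1.60% and 1.57% in SDS10 and 1.63%, 1.56%, 1.59%, 1.56% and 1.49% in SDS30. The groups overlapped (exact permutation p = 0.0873, adjusted 0.262), and the control mean was 1.56% ± 0.0350 (SD, n = 3).

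Lists of genes with known roles are described by counts and medians beside the same over all coding genes, of which 33.2% were higher in SDS30 (median log2 fold change -0.05), and 47.6% with the trend removed (median -0.01). No list had a member with an adjusted p under 0.05. The lists were chosen with results of these data known and carry no test.

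**Figure D4:**
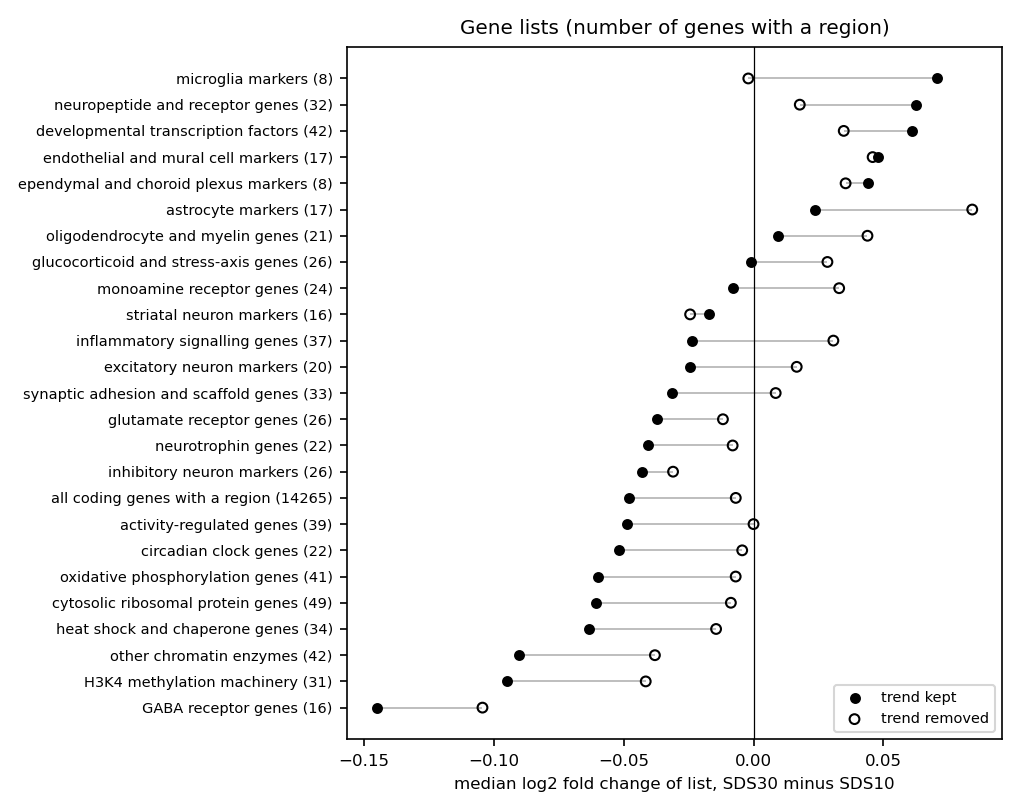
Median log2 fold change, SDS30 minus SDS10, of each gene list with the trend kept (filled) and removed (open); the number of genes with a region is in parentheses. GABA receptor genes have the lowest median in both, -0.14 and -0.10, and the 8 microglial genes with a region have the highest with the trend kept (0.07).

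Receptors for GABA, the main inhibitory transmitter of the cortex, were lower in SDS30 for 15 of the 16 genes with a region (15 regions, since Gabra4 and Gabrb1 share 1). The median log2 fold change was -0.14, and -0.10 with the trend removed, when 14 of 16 were lower. Not 1 of them reached an unadjusted p under 0.05. Gabrb2, a beta subunit of GABA-A receptors, differed by -0.16 ± 0.13, while Gabrd, of extrasynaptic receptors, differed by 0.02 ± 0.19. The spread was wide: the mean log2 deviation of these genes was 0.02, 0.49, 0.11, -0.17 and -0.04 in the SDS10 libraries and 0.24, -0.19, -0.23, -0.21 and 0.18 in SDS30. The median over the list was -0.02 without replicate 2 of SDS10 and -0.22 without replicate 1 of SDS30.

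The same libraries stood out in other neuronal lists. The mean log2 deviation of glutamate receptor genes was 0.41 in replicate 2 of SDS10 and 0.21 and 0.23 in replicates 1 and 5 of SDS30, against -0.24 to -0.01 in the other SDS libraries. Excitatory neuron markers had 0.41, 0.11 and 0.33 in those 3 libraries and -0.20 to -0.02 in the others. Endothelial and mural markers were low in replicate 2 of SDS10 (-0.40) and replicate 1 of SDS30 (-0.51). The part of these differences between libraries in the group values of single genes was not tested.

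Glutamate receptor genes had 11 of 26 members higher in SDS30 (median -0.04; 12 with the trend removed). Grm6, a metabotropic receptor, differed by 0.15 ± 0.12. Of 24 monoamine receptor genes 11 were higher (median -0.01), and 16 with the trend removed. The dopamine receptor genes Drd4 and Drd2 were the members with the smallest p in each direction (0.20 ± 0.17 and -0.63 ± 0.41). Neuropeptide and receptor genes had 22 of 32 members higher (median 0.06), and 17 with the trend removed. The somatostatin receptor gene Sstr3 had 43.3 ± 4.92 in SDS10 and 61.9 ± 16.1 in SDS30 (SD, n = 5; 0.47 ± 0.22), and the enkephalin precursor gene Penk differed by -0.27 ± 0.19. Of 33 synaptic adhesion and scaffold genes 24 were lower with the trend kept and 14 with it removed. Shank2, a postsynaptic scaffold, differed by 0.32 ± 0.19 and Nlgn1, a neuroligin, by -0.23 ± 0.12. Neurotrophin genes had 13 of 22 lower. The BDNF receptor gene Ntrk2 had 937 ± 86.7 in SDS10 and 836 ± 51.8 in SDS30 (SD, n = 5; -0.16 ± 0.07), Ngfr, of the low-affinity receptor, differed by 0.19 ± 0.11, and Bdnf itself had 340, 500, 343, 307 and 300 in SDS10 and 419, 283, 236, 240 and 381 in SDS30 (-0.21 ± 0.19).

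At most genes of the proteins that write, read and erase the mark, its own signal was lower in SDS30, as it was over all coding genes, of which 33.2% were higher. Of 31 genes of the H3K4 methylation machinery, 25 were lower in SDS30 (median -0.09), and 19 with the trend removed (median -0.04). The mean log2 deviation of the list was 0.149 in replicate 2 of SDS10 and -0.172 in replicate 2 of SDS30, against -0.0485 to 0.0896 in the other SDS libraries. Without the first of these libraries the list's median fold change (H3K4 methylation machinery) was -0.052, and without the second -0.063. At an unadjusted p under 0.05 in the lower direction stood 3 of the 31, against 5.69% of all coding genes with the trend kept and 2.75% with it removed. They were Kmt2c, a methyltransferase of enhancers (-0.20 ± 0.07), Hcfc1, a cofactor of the SETD1 and MLL complexes (-0.34 ± 0.16), and Chd1, a remodeller that reads H3K4me3. All 3 stood there with the trend kept and removed. Hcfc1 is on the X chromosome, whose regions had a median log2 fold change of -0.06, and -0.10 with the trend removed. Chd1 had 582, 590, 504, 512 and 550 in SDS10 and 493, 391, 457, 461 and 485 in SDS30. No SDS30 library reached the lowest SDS10 library (-0.26 ± 0.08; trend removed -0.20 ± 0.07). Cxxc1, the CpG-binding subunit of SETD1, differed by 0.10 ± 0.10 and the demethylase gene Kdm5b by -0.10 ± 0.09. Of 42 other chromatin enzymes 34 were lower (median -0.09), and 31 with the trend removed (median -0.04), with a mean log2 deviation of 0.174 in replicate 2 of SDS10 and -0.182 in replicate 2 of SDS30 against -0.0707 to 0.0686 in the others. Sirt1, a NAD-dependent deacetylase, had 433, 593, 314, 317 and 396 in SDS10 and 330, 266, 359, 261 and 296 in SDS30. The groups overlapped, and both ends of the SDS10 range lay far from its middle (-0.41 ± 0.14). Kat5, an acetyltransferase, differed by 0.10 ± 0.10.

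Genes that respond to activity and stress had no direction that held with the trend both kept and removed. Of 39 activity-regulated genes, 14 were higher and 25 lower, and 20 and 19 with the trend removed. At an unadjusted limma p under 0.05, 1 was higher and 4 lower, and 3 and 0 with the trend removed. Over all coding genes these shares were 0.645% and 5.69%, and 1.68% and 2.75% with the trend removed. Egr3 had 568, 459, 582, 508 and 472 in SDS10 and 434, 670, 668, 637 and 666 in SDS30. Replicate 1 of SDS30 was below all SDS10 libraries and the other 4 above them (0.24 ± 0.11; trend removed 0.30 ± 0.12). Dusp6, a phosphatase that ends ERK signalling, differed by -0.20 ± 0.08 (trend removed -0.14 ± 0.07) and Arc by 0.12 ± 0.09 (trend removed 0.18 ± 0.07). Fos differed by 0.01 ± 0.08, Npas4 by -0.18 ± 0.25 and Egr1 by -0.06 ± 0.13. The direction for Fos turned with TMM scaling, edgeR and DESeq2. Of 26 glucocorticoid and stress-axis genes, 13 were higher (16 with the trend removed). At an unadjusted limma p under 0.05, 0 were higher and 1 lower, and 4 and 0 with the trend removed. Fkbp5, a chaperone that restrains the glucocorticoid receptor, had 424, 511, 443, 337 and 461 in SDS10 and 392, 370, 369, 384 and 369 in SDS30. The SDS30 libraries were close to each other and inside the SDS10 range (-0.19 ± 0.10; trend removed -0.14 ± 0.09). Cdkn1a differed by 0.19 ± 0.10 (trend removed 0.26 ± 0.10) and Hsp90ab1 by -0.18 ± 0.08 (trend removed -0.13 ± 0.07). Crh differed by 0.08 ± 0.14 and the receptor gene Nr3c1 by 0.04 ± 0.23, the last turning to -0.04 with the trend removed.

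Clock, the partner of BMAL1 in the circadian oscillator, had 866, 998, 852, 751 and 883 in SDS10 and 782, 623, 714, 625 and 798 in SDS30. Only replicate 4 of SDS10 lay within the SDS30 range (-0.30 ± 0.09; trend removed -0.24 ± 0.07), and Tef, a clock output factor, differed by 0.11 ± 0.08. Of the 22 clock genes, 16 were lower and 11 with the trend removed. Inflammatory signalling genes had 20 of 37 lower and 13 with the trend removed. Nfkb1 had 778, 844, 757, 788 and 792 in SDS10 and 744, 633, 711, 675 and 721 in SDS30, with no overlap (-0.19 ± 0.07; trend removed -0.12 ± 0.06), while Nfkb2 differed by 0.17 ± 0.12.

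At genes of basic functions the mark had lower values in most members, and in a smaller majority with the trend removed. Most coding genes were lower too: 33.2% were higher, and 47.6% with the trend removed. With it removed, 42.9% of ribosomal, 46.3% of oxidative phosphorylation and 38.2% of heat shock genes were higher. The mean log2 deviation of ribosomal genes was 0.124 in replicate 2 of SDS10 and -0.143 in replicate 2 of SDS30. In the other SDS libraries it was -0.0588 to 0.0408. Both replicates numbered 2 were also the SDS extremes in the oxidative phosphorylation and heat shock lists. Of 49 cytosolic ribosomal protein genes 39 were lower and 28 with the trend removed, with Rps6 at -0.29 ± 0.09 and Rpl18 at 0.06 ± 0.10. Of 41 oxidative phosphorylation genes 32 were lower and 22 with the trend removed, with the succinate dehydrogenase subunits Sdhc at -0.23 ± 0.09 and Sdhb at 0.13 ± 0.08. Of 34 heat shock and chaperone genes 27 were lower and 21 with the trend removed, with Hspa4 at -0.23 ± 0.09 and a region shared by Hspa1a and Hspa1l at 0.26 ± 0.16. Developmental transcription factors went the other way, with 28 of 42 higher and 26 with the trend removed (median 0.06 and 0.03). Their signal was weak, with a median of 93.8 in SDS10 and 98.0 in SDS30, against 364 and 349 over all coding genes. The mean log2 deviation of this list was -0.377 in replicate 2 of SDS10 and -0.378 in replicate 1 of SDS30. In the other SDS libraries it was -0.072 to 0.166. Of these factors, Pax5 (0.78 ± 0.39) and Bmi1 (-0.13 ± 0.09) had the smallest p in each direction.

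Markers of cell types gave no list with more than 2 members at an unadjusted p under 0.05 in a direction. Of 26 inhibitory neuron genes 11 were higher (42.3%, against 33.2% of all coding genes), and 9 with the trend removed (34.6% against 47.6%). Among the higher ones were Pvalb, above, and Lhx6, a factor of interneurons from the medial ganglionic eminence (118 ± 17.6 in SDS10, 144 ± 10.8 in SDS30; SD, n = 5; 0.30 ± 0.13). Maf, another interneuron factor, had 1197 ± 47.4 and 1063 ± 67.9 (-0.17 ± 0.06; trend removed -0.11 ± 0.06), and Gad1, of GABA synthesis, differed by 0.04 ± 0.23. Of 20 excitatory neuron markers 9 were higher, and 11 with the trend removed: Tle4 differed by -0.19 ± 0.08 and the vesicular glutamate transporter gene Slc17a7 by 0.03 ± 0.21. Cldn5, the main claudin of the blood-brain barrier, had 153, 123, 122, 105 and 150 in SDS10 and 112, 161, 185, 197 and 198 in SDS30. Replicate 1 of SDS30, the library with the lowest endothelial deviation, was inside the SDS10 range (0.37 ± 0.16). Of 17 endothelial and mural genes 12 were higher and 9 with the trend removed, with Kcnj8 at -0.18 ± 0.12. Among glial genes, 12 of 21 of oligodendrocytes (Myrf 0.28 ± 0.16, Fa2h -0.21 ± 0.15, Mbp -0.03 ± 0.10), 9 of 17 of astrocytes (Aldoc 0.16 ± 0.16, S100b -0.38 ± 0.28) and 5 of 8 of microglia (Irf8 0.21 ± 0.11, Sall1 -0.10 ± 0.09) were higher. After trend removal these counts were 13, 9 and 4. Of 8 ependymal and choroid plexus genes 5 were higher (Kl 0.21 ± 0.15, Foxj1 -0.14 ± 0.14), and of 16 striatal genes 7 (Pdyn 0.40 ± 0.29, Rarb -0.20 ± 0.09). Their part in the differences above was not tested.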

How the data were processed

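H3K4me3 ChIP-seq of micrococcal-nuclease mononucleosomes was read from 1 end over 100 bp, per the labels' protocols. The submitters' processing notes name Trimmomatic, Bowtie2, MACS2 and DESeq2 and the builds mm10 and GRCm38.p5. For versions, the count window and duplicates, the sources used here give nothing. The deposited table holds, per summit and library, a normalised signal that the authors made as reads over a size factor of that library. 100% of values were whole multiples of 1 step (tolerance 0.001 reads), from which whole reads were recovered. A deposited peak score, of no stated scale, was not used. There were no molecular identifiers, so reads can repeat a molecule.

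Summit values were summed per region. limma (3.58.1, R 4.3.3) was fitted with a variance trend on log2(value + 1) over all 13 ChIP libraries, with a mean per group and the contrast SDS30 minus SDS10, on features kept by filterByExpr of edgeR (4.0.16). Fold changes on this scale understate those of low features. The trend was removed by subtracting from each library a loess curve (span 0.3) of its deviation from the 13-library mean. Benjamini-Hochberg adjusted p-values under 0.05 were called. edgeR, DESeq2 (1.42.0), other scalings, filters and pseudocounts, and leaving out libraries, were alternatives. The fits were tested on simulated data. Library measures were compared by exact permutation, and correlations with 100000 permutations. A measure of promoter GC content was void because only 79.4% of regions near a start had a value, and it is used only in counting 9 measures for the adjustment.

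Gene starts came from RefSeq (GRCm38.p6), within 2 kb. Where a gene had no start window, both of its ends were used as starts. A region counted at the start of such a gene can thus lie at its other end. Among the regions named first this applies to Klhl24, Tusc3, Ncoa2, Sema3f, Chmp6 and Mppe1. The members and lists were chosen with earlier results of these data known. Named genes are, per direction, the 8 coding-gene regions with the smallest p and no overlap between groups, the 4 with the trend removed, 4 summits, 3 distal regions, 4 summit shares in all, the member of each of the 24 lists with the smallest p, and 12 fixed genes, leaving out gene models, receptors of smell and pseudogenes. A few genes that the rule names are not reported here. Replicate numbers did not pair the libraries.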

Additional observations from a re-analysis of the deposited data

Results flagged for a closer look

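In 17 of 210 groups of 5 libraries (8.10%) the highest or lowest library lay apart from the rest by more than 0.71 of the group's range (Dixon's criterion, which chance passes in about 1 of 20). Replicate 2 of SDS10 was that library in 8 of them: it was low at Myrf (94.6), Aldoc (72.0) and Grm6 (199.0) and high at Gabrd (351.5), Ntrk2 (1088), Bdnf (499.7), Slc17a7 (207.5) and Mbp (688.9). Replicate 2 of SDS30 was high at Sema3f (71.9) and Mrpl14 (53.1) and low at Trim27 (279.6) and Cxxc1 (262.4). Replicate 5 of SDS30 was high at Chmp6 (303.6) and Egr1 (635.5). Replicate 1 of SDS30 was low at Egr3 (433.8) and high at Rps6 (439.3), and replicate 3 was high at Tle4 (727.8). No cause was tested.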

How the results depend on the processing

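The counts of 0 called regions and 0 called summits held under every alternative run, with the smallest adjusted p at 0.612 for regions (limma, without replicate 1 of SDS30) and 0.247 for summits (DESeq2). The regions at an unadjusted limma p under 0.05 numbered 3694 without replicate 1 of SDS30 and 1336 without its replicate 2. The 2 called summit shares became 0 with the trend removed, with a pseudocount of 5, and with each summit's own spread, trend kept or removed. Leaving out 1 library gave 0 to 4. Alternatives that left out libraries with the trend removed, left out replicate 2 of both groups or used each summit's own spread were chosen after seeing the data. The cause of these shifts was not tested.

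With the replicate number as a block, limma called 0 regions and 0 summits, and 1750 regions and 6630 summits had an unadjusted p under 0.05. With the block and the trend removed these were 1389 and 5390, and 2 summit shares were called with the block. Deviations of same-numbered libraries correlated at -0.26 to 0.16 across regions, and no library of regions correlated best with its own number, so the numbers were not taken as pairs. The block changed no call.

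Of 96 named regions and summits, 81 kept their direction under every alternative and 15 did not. With the strongest summit in place of the sum, the log2 fold change was -0.092 for Egr3, -0.062 for Grm6, -0.019 for Gabrd, -0.12 for Fos, -0.11 for Gad1, -0.26 for Slc17a7, 0.080 for Mbp and 0.098 for Kdm5b. After trend removal it was 3.93e-06 for Egr1, -0.035 for Nr3c1, -0.051 for Gad1 and 0.032 for Mbp. Fos was at -0.0086 with TMM, -0.0049 with edgeR and -0.0095 with DESeq2, and Gad1 at -0.013 with edgeR and -0.019 with DESeq2. Leaving out libraries, with the trend kept or removed, gave -0.17 to 0.015 for Sall1, -0.075 to 0.20 for Gabrd, -0.0071 to 0.29 for Drd4, -0.00056 to 0.16 for Rpl18, -0.014 to 0.097 for Fos, -0.19 to 0.070 for Egr1, -0.34 to 0.0062 for Npas4, -0.16 to 0.18 for Nr3c1, -0.032 to 0.15 for Crh, -0.19 to 0.21 for Gad1, -0.11 to 0.18 for Slc17a7 and -0.071 to 0.091 for Mbp. Among library measures, the difference in median absolute deviation was -0.0011 over single summits and -0.0065 to 0.0349 with libraries left out. Leaving out libraries gave -0.738 to 0.00713 percentage points for the percent of signal in the strongest 5% of regions and -0.671 to 0.193 for the percent of signal in the widest 5% of regions. The difference in slope with signal level kept its direction throughout.

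The median SE of a region's log2 fold change, from the spread between libraries, was 0.22. The part of read depth in that spread was not tested.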
